A study of Mus musculus with 72 samples.

Results

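The genes described here answer to interferon or process peptides for presentation on major histocompatibility complex (MHC) class I molecules. They came from a list of 38 symbols that cover interferon-regulated transcription factors, an RNA sensor, antiviral effectors, GTPases, immunoproteasome subunits, class I peptide loading and a chemokine. A probe of such a symbol was a member where its mean reached 1 CPM (1 count in each mega of the library's counts) in at least 1 of the 8 groups, and 61 of 65 listed probes, of 36 genes, met that rule. Expression was measured in liver of female B6C3F1 mice, a hybrid laboratory strain, aged 9 to 11 weeks and weighing 15 to 25 g at the outset. The mice drank water that held tertiary butyl alcohol (TBA), a small solvent alcohol, at 10, 20 or 40 mg/mL, or water without it, for 14 or 28 d, and each lived in a cage of its own. Every group had 9 mice, and all livers were fixed in formalin and embedded in paraffin before sections were scraped for TempO-Seq, an assay that counts ligated pairs of probes on targeted transcripts. The series title asks how thyroid tumours could arise in TBA-exposed female mice, and here each dose was set against the controls of the same duration.

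Interferons bind receptors that activate JAK kinases and STAT transcription factors. A complex that holds STAT2 and IRF9 binds the interferon-stimulated response element (ISRE) in promoters of genes such as Isg15 and Rsad2, and the gamma-activated site (GAS) is a further element of interferon-regulated promoters. In liver, hepatocytes, Kupffer cells and sinusoidal endothelial cells all respond to interferon. Peptides cut by the proteasome are pumped into the endoplasmic reticulum by TAP1 and TAP2, loaded with the help of tapasin onto class I heavy chains paired with beta-2-microglobulin, and shown at the cell surface to CD8+ T cells.

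The stretches before the start sites of 5 members are shown because the results below turn on these genes. B2m, Bst2 and Tapbp fell at 40 mg/mL for 14 d, and Isg15 and Rsad2 are effectors with very low values in single animals. Sequences are from RefSeq (GRCm38.p6), 250 bases upstream of the start, 5′ to 3′ on the gene's strand. Capitals mark matches to GAAANNGAAA on either strand, the core letters of an ISRE, and overlapping matches run together. B2m lies at chr2:122147437-122147686 on the plus strand, Bst2 at chr8:71537473-71537722 on the minus strand, Isg15 at chr4:156200819-156201068 on the minus strand, Rsad2 at chr12:26456453-26456702 on the minus strand and Tapbp at chr17:33919228-33919477 on the plus strand.
B2m: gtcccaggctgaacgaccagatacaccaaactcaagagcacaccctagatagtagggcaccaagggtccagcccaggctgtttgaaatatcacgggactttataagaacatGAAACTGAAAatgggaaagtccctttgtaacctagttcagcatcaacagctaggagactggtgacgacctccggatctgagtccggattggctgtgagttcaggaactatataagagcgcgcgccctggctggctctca
Bst2: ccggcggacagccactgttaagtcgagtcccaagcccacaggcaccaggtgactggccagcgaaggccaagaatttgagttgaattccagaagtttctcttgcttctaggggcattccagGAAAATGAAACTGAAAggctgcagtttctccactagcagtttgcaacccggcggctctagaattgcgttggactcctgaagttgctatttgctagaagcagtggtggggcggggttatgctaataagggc
Isg15: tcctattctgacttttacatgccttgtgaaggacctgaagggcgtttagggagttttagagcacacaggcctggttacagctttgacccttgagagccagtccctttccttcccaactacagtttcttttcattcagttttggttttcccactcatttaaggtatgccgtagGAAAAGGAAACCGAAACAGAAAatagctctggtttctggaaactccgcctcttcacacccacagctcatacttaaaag
Rsad2: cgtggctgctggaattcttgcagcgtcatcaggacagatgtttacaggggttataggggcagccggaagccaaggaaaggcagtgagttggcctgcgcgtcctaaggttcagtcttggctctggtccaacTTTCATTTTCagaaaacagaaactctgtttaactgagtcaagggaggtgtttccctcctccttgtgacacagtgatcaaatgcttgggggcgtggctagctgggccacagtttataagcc
Tapbp: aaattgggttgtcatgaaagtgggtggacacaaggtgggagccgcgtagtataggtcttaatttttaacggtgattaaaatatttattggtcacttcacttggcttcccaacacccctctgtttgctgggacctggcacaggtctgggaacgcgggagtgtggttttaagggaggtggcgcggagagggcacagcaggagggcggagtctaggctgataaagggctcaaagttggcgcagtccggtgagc
The Tapbp stretch held no match, B2m had 1 that begins 139 bases before the start, Bst2 had 2 that overlap and Isg15 had 3 that overlap. In the window of Ifih1 the match GAAACAGAAA began at base 33 after the start (chr2:62646214-62646223, minus strand). Windows of 300 bases (250 before and 50 after the start) were found for 30 of the 36 genes, and genes with several starts bring these to 35 windows. The ISRE letters stood in 16 of the 35 windows (45.7%), against 3.44% of 32851 windows of all genes. The GAS letters TTCNNNGAA stood in 6 of the 35 windows (17.1%) and in 8.3% of all windows, and in Bst2 alone among the genes that fell. Of the 5 genes that fell at 40 mg/mL for 14 d, 4 had 1 window each and 3 of these held ISRE letters. Among the 31 windows of the 26 other genes, 13 held them (41.9%). No test was made of these shares, and the genes that fell had only 4 windows. The members were listed as genes that answer to interferon or present peptides. Their share of ISRE letters is thus a property of the list and no result of these livers.

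In the group given 40 mg/mL for 14 d, replicate 5 had only 10796 counts and was left out, so that group has 8 animals. The other 71 held 7.77 to 12.7 M (mega) counts, and 17050 features were tested in them, all 61 member probes among them. Replicates are numbered in listing order and are separate animals. Group means used for the rule of 1 CPM, and the highest group means given below, are CPM without scaling. Other values below are CPM after scaling of the libraries by TMM, a method that assumes most features keep their level. Its factors were 0.847 to 0.961 in the 14 d controls and 0.978 to 1.58 at 40 mg/mL for 14 d. Hepatocyte markers identified the tissue, with 8 marker genes summing to 39800 to 56900 CPM in the 14 d controls. Each gene stands for its most abundant member probe. TempO-Seq probes bind with unequal efficiency, so levels of different genes are not compared. Closely related families (class I H2 genes, Gbp, Ifit and Irgm) may share signal between copies, and their values are uncertain in that respect. Liver sections hold many cell types, so fewer cells of a type and less RNA per cell cannot be told apart.

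At 40 mg/mL for 14 d, 5 member genes fell and 0 rose. They were B2m and Tapbp of class I peptide loading, the RNA sensor Ifih1, the antiviral protein gene Bst2 and the GTPase gene Iigp1. In edgeR's quasi-likelihood test with Benjamini-Hochberg adjustment over all features (threshold 0.05), 5 of 61 member probes passed (8.2%). Of all features 6.52% passed in either direction and 3.68% passed as lower. The median log2 fold change of the 36 genes was -0.17, with 25 of 36 below 0, and that of all features was 0.06, with 43.3% below 0. A further 9 member probes had an unadjusted p under 0.05 and did not pass, which makes 14 of 61 (23%), beside 19% of all features.

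B2m encodes beta-2-microglobulin, the light chain of every class I molecule. Its level was lowest 193, median 211 and highest 270 CPM in the 14 d controls. At 40 mg/mL for 14 d it was lowest 79.8, median 96.1 and highest 208 CPM. In that group 7 of 8 animals lay below every control and the animals formed a low set and a high set, with replicates 1, 2, 7, 8 and 9 at 79.8 to 96.9 CPM and replicates 3, 4 and 6 at 187 to 208 CPM. The fall was 1.74-fold (log2 fold change -0.80, SE 0.17, adjusted p = 0.00144 by edgeR). Tapbp encodes tapasin, which holds class I molecules at the peptide transporter. Its controls ranged from 19.8 to 36.2 CPM with a median of 26.8. At 40 mg/mL it ranged from 10.5 to 24.3 CPM with a median of 16.5, and 7 of 8 animals lay below every control. It fell 1.67-fold (log2 fold change -0.74, SE 0.18, edgeR adjusted p = 0.00523). The animals of the dosed group did not split for Tapbp as they did for B2m. For the peptide transporter gene Tap2 the 3 probes had log2 fold changes of -0.36, -0.53 and -0.65 and none passed, the smallest edgeR adjusted p being 0.0687. With the probes summed per gene Tap2 passed (log2 fold change -0.45, edgeR adjusted p = 0.0284). Tap1, the other transporter subunit, had a value of 0.00 (95% confidence interval -0.64 to 0.64).

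**Figure D1:**
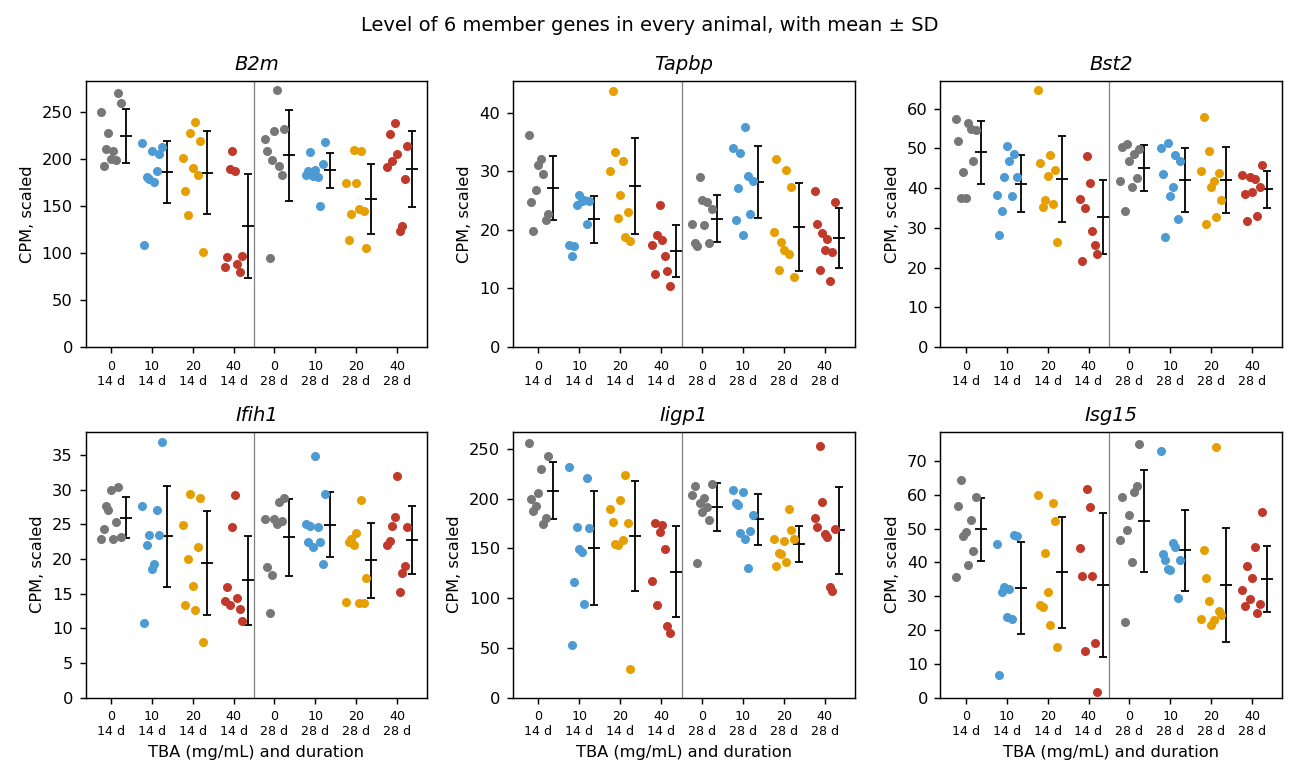
Scaled CPM (vertical axes, from 0) of 6 member genes in every animal, by TBA dose and duration. Dots are animals and the black marks are mean ± SD. At 40 mg/mL for 14 d, B2m lay at 79.8 to 96.9 CPM in 5 animals against 193 to 270 CPM in the controls, and the lowest Isg15 value was 1.65 CPM.

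Ifih1 encodes MDA5, a cytoplasmic sensor of long double-stranded RNA. Controls at 14 d ranged from 22.8 to 30.4 CPM with a median of 25.3, and animals at 40 mg/mL from 11.1 to 29.2 CPM with a median of 14.2. In the dosed group 6 of 8 lay below every control, and replicates 4 and 6 lay within the control range. The fall was 1.54-fold (log2 fold change -0.62, SE 0.19, edgeR adjusted p = 0.0356), and the call was lost in 10 of 17 refits that left out 1 library. The transcription factors that drive the programme did not pass in any of 4 cases. Stat2, part of the ISRE-binding complex, was 42.6 to 97.1 CPM (median 66.8) in controls and 57.7 to 102 CPM (median 76.8) at 40 mg/mL, and the groups overlapped. Log2 fold changes were 0.20 for Stat2, 0.21 for Irf1 (an activator of class I genes), 0.19 for Irf7 (an amplifier of type I interferon) and -0.27 for Irf9 (the DNA-binding partner of STAT2). The smallest edgeR adjusted p of these 4 was 0.484. Usp18 encodes a protease that removes ISG15 and restrains the interferon receptor. Its most abundant probe ranged from 5.71 to 93.2 CPM (median 24.3) in controls and from 0.784 to 67.4 CPM (median 24.1) at 40 mg/mL. The groups overlapped throughout (log2 fold change -0.31, 95% confidence interval -1.66 to 1.04), and its second probe had a value of -0.16.

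Among the 16 antiviral effectors and other interferon-stimulated genes, 1 fell and 15 did not pass, and their median log2 fold change was -0.05. Bst2 encodes tetherin, which holds budding virus at the cell surface. It ranged from 37.4 to 57.3 CPM (median 51.8) in controls and from 21.7 to 48.0 CPM (median 32.0) at 40 mg/mL, where 6 of 8 animals lay below every control. The fall was 1.5-fold (log2 fold change -0.59, SE 0.14, edgeR adjusted p = 0.00467). The second probe of Bst2 had -0.31 and did not pass (edgeR adjusted p = 0.256). Rsad2, the gene of viperin, which makes a chain-terminating nucleotide, and Isg15, a ubiquitin-like modifier, were looked at after their values had been seen. Rsad2 was 6.25 to 17.3 CPM in controls and 0.261 to 11.8 CPM at 40 mg/mL (log2 fold change -0.93, SE 0.39, edgeR adjusted p = 0.155). It passed in 1 of 11 alternatives, over which its log2 fold change ran from -1.47 to -0.31. Isg15 was 35.8 to 64.5 CPM in controls and 1.65 to 61.8 CPM at 40 mg/mL (log2 fold change -0.58, SE 0.32, edgeR adjusted p = 0.326). Both spanned a wide range within the dosed group. The 7 effectors with positive values, none of which passed, were Ifi35 (0.86), Rtp4 (0.36), Trim30a (0.36), Oasl1 (0.27), Ifit3 (0.25), Oasl2 (0.16) and Ifit2 (0.12).

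Interferon-inducible GTPases surround and break down vacuoles of intracellular pathogens. By their most abundant probes all 7 measured genes had log2 fold changes below 0 at 40 mg/mL for 14 d, and 1 of 7 passed. The median was -0.50. Iigp1, which encodes Irga6, ranged from 175 to 256 CPM (median 200) in controls and from 65.2 to 176 CPM (median 133) at 40 mg/mL, and 7 of 8 animals lay below every control. It fell 1.64-fold (log2 fold change -0.72, SE 0.21, edgeR adjusted p = 0.022). Its second probe had -0.63 and did not pass (edgeR adjusted p = 0.0704). Igtp, which encodes Irgm3 and restrains other GTPases from self-membranes, had -0.66 (edgeR adjusted p = 0.0877), Ifi47 -0.64 (0.164), Irgm2 -0.50 (0.386), Irgm1 -0.38 (0.166), Gbp2 -0.15 (0.848) and Gbp3 -0.01 (0.989). Gbp3 kept its sign in only 6 of 11 alternatives, with values from -0.32 to 0.12 (0.00 with the size factors of DESeq2). Its less abundant probes had -0.43, 0.59 and 0.70. When each library's log2 scaling factor entered the model as a covariate, the values were 0.35 for Irgm2, 0.29 for Gbp2, 0.12 for Gbp3 and 0.00 for Irgm1, so the shared direction does not hold there. The scaling factors of this group did not overlap those of its controls, so that fit cannot fully separate dose from scaling.

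Immunoproteasome subunits replace the standard catalytic subunits and change the peptides cut. Psmb10 was 12.8 to 23.3 CPM (median 15.1) in controls and 11.3 to 22.7 CPM (median 14.1) at 40 mg/mL (log2 fold change -0.15, 95% confidence interval -0.53 to 0.24). Psmb9 had -0.27 (edgeR adjusted p = 0.585), or 0.22 with the scaling factor as a covariate. Neither gene passed. Psmb8 was no member, since its probe reached 0.846 CPM in its highest group, the value just outside the rule. The lowest probes just inside were of Tap1 at 1.12 CPM and of Ifi35 at 1.29 CPM, and the probes outside were 1 each of Psmb8, Psmb9, Gbp7 and Oasl1. Cxcl10, a chemokine that draws activated T cells, was 3.16 to 9.71 CPM (median 5.17) in controls and 0.174 to 11.9 CPM (median 2.66) at 40 mg/mL. Its groups overlapped (log2 fold change -0.61, SE 0.50, edgeR adjusted p = 0.573).

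**Figure D2:**
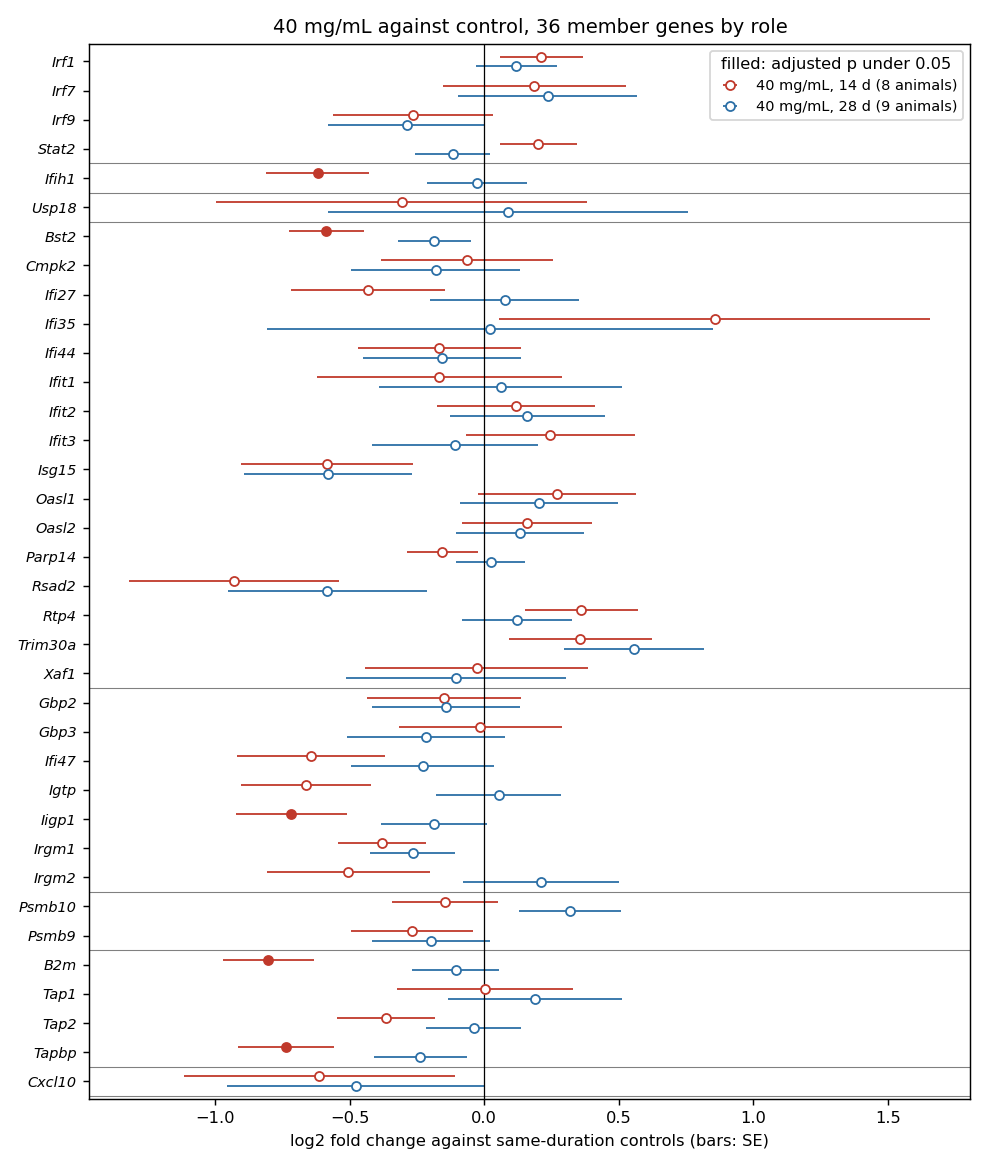
Log2 fold change of 36 member genes at 40 mg/mL against controls of the same duration (horizontal axis), with SE bars, at 14 d (red) and 28 d (blue). Filled symbols passed an adjusted p of 0.05. The 5 filled symbols are all at 14 d and lie between -0.80 and -0.59, and 0 genes passed at 28 d.

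Single libraries moved this count. Leaving out replicate 1, 8 or 9 at 40 mg/mL for 14 d left 3 member probes in each case, and leaving out replicate 6 gave 8. The call on Iigp1 was lost without replicate 1, 8 or 9, while B2m, Tapbp and Bst2 passed in all 17 refits. Library scaling moved with B2m. In replicates 1, 2, 7, 8 and 9 at 40 mg/mL, where B2m was 79.8 to 96.9 CPM, scaling factors were 1.12 to 1.58 and summed hepatocyte markers were 9770 to 28000 CPM. In replicates 3, 4 and 6 the factors were 0.978 to 1.02 and the marker sums 35700 to 42800 CPM. When each library's log2 scaling factor entered the model as a covariate, 2 member probes passed. They were those of Tapbp (-0.65, edgeR adjusted p = 0.0481) and of Tap2 (-0.68, edgeR adjusted p = 0.0317), which did not pass without the covariate. The values of the other 4 genes were -0.44 for Bst2 (0.0861), -0.38 for Iigp1 (0.424), -0.23 for B2m (0.27) and -0.06 for Ifih1 (0.92). Over all features, 484 rose and 627 fell without that covariate, and 356 rose and 199 fell with it. Scaling factors at 40 mg/mL for 14 d (0.978 to 1.58) did not overlap those of the 14 d controls (0.847 to 0.961). The fit with the covariate therefore cannot fully separate dose from scaling. The part of hepatocyte content and of library scaling in the fall of B2m was not tested beyond these values.

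**Figure D3:**
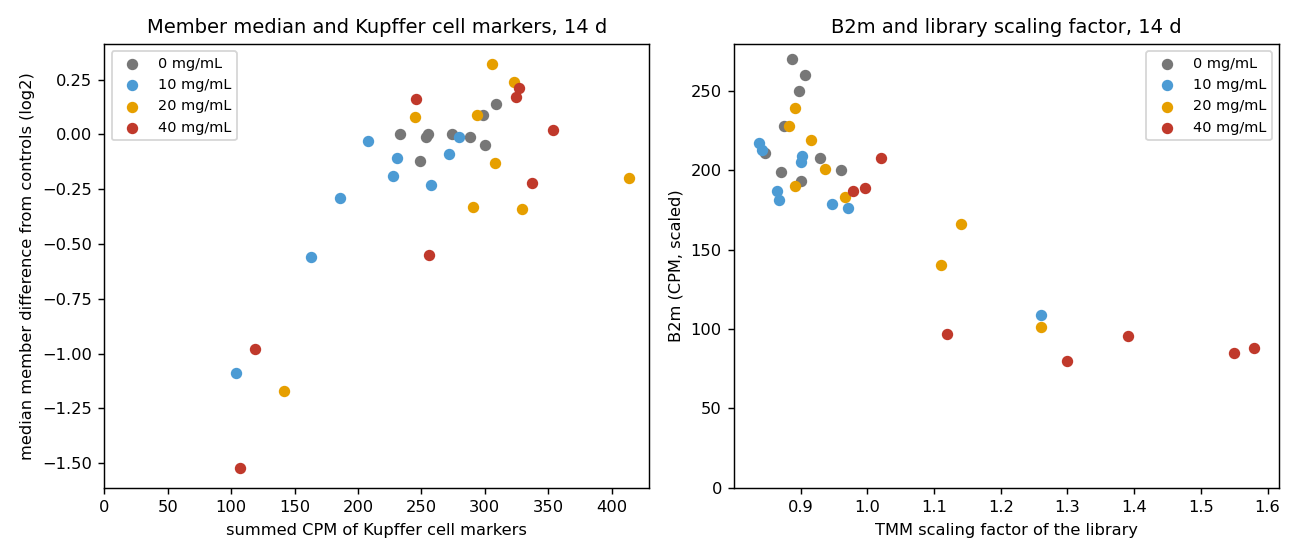
Left, median difference of the 36 member genes from the control medians (log2) against the summed CPM of 10 Kupffer cell markers in every animal at 14 d. Right, B2m (scaled CPM, from 0) against the TMM scaling factor of the library. The 4 lowest animals on the left have Kupffer sums of 104 to 142 CPM against 233 to 309 CPM in controls, and on the right B2m values of 79.8 to 96.9 CPM occur at factors of 1.12 to 1.58.

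In dosed groups at 14 d a few animals had low values of most members. For each animal the log2 difference of every gene from the control median was taken, and the median over the 36 genes ranged from -0.12 to 0.14 in the 14 d controls. The 4 animals with the lowest medians, named after their values were seen, were 40 mg/mL replicate 9 at -1.52, 20 mg/mL replicate 9 at -1.17, 10 mg/mL replicate 2 at -1.09 and 40 mg/mL replicate 8 at -0.98. The lowest and the highest medians of all other dosed animals at 14 d were -0.56 and 0.32. In 40 mg/mL replicate 9, 49 of 61 member probes lay below all controls (80.3%, against 19.9% of all features). In 40 mg/mL replicate 8 it was 39 of 61 (63.9%, against 17% of all features). In 20 mg/mL replicate 9 it was 44 of 61 (72.1%, against 25.2%), and in 10 mg/mL replicate 2 it was 41 of 61 (67.2%, against 20.9%). Each 14 d control set against the other controls had 1 to 14 such probes. The median over all features was between -0.05 and 0.03 in these 4 animals. At each dose at least 1 animal at 14 d was thus low, and the group medians were -0.19, -0.13 and -0.10 at 10, 20 and 40 mg/mL. At 28 d an undosed animal, control replicate 3, had 23 of 61 probes below the other controls (37.7%, against 23.1%), with a member median of -0.26. There 20 mg/mL replicate 1 had 25 of 61 (41%, against 26.8%), with a member median of -0.61.

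**Figure D4:**
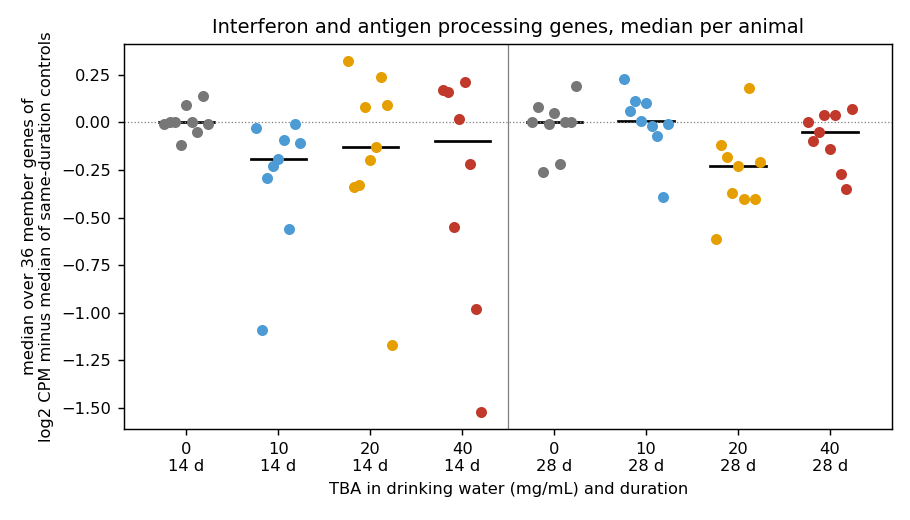
Median over 36 member genes of log2 CPM minus the median of the same-duration controls (vertical axis), 1 dot per animal, by TBA dose and duration, with a line at each group's median. The 14 d controls lie between -0.12 and 0.14, and 4 dosed animals at 14 d lie between -1.52 and -0.98.

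Some marker sums of other liver cells were also below the control range in these 4 animals. Summed Kupffer cell markers, 10 of 11 measured, were 107 and 119 CPM in 40 mg/mL replicates 9 and 8, 142 in 20 mg/mL replicate 9 and 104 in 10 mg/mL replicate 2, and 233 to 309 CPM in controls. Sinusoidal endothelial markers, 8 of 9 measured, were 302, 295, 227 and 261 CPM in that order against 409 to 505 CPM. Neutrophil and monocyte markers, 3 of 7 measured, were 9.15, 11.1, 5.2 and 8.68 CPM against 16.3 to 38.6 CPM. Stellate cell markers, 8 of 8 measured, were 102, 130, 136 and 103 CPM against 148 to 200 CPM, and hepatocyte markers were 28000, 12500, 26200 and 25600 CPM against 39800 to 56900 CPM. T and NK cell markers, 5 of 12 measured, were 3.48, 4.86, 2.85 and 2.24 CPM against 4.88 to 16 CPM. Other lists were not below the controls in each of them. B and plasma cell markers were 1.48, 3.04, 1.28 and 0.94 CPM against 1.9 to 12 CPM, cholangiocyte markers 8.88, 20.8, 4.27 and 20.6 CPM against 11.5 to 25.6 CPM, and the 1 dendritic cell marker 13.1, 6.07, 8.62 and 10.3 CPM against 4.7 to 15.1 CPM. The Kupffer markers Clec4f and Cd5l were above 0 in every animal at 14 d, with lowest values of 6.62 and 8.01 CPM, while Marco was at 0 in some animals of every 14 d group. Low sinusoidal endothelial and hepatocyte sums also occurred in other animals at 40 mg/mL for 14 d. The medians of that group were 380 and 20700 CPM, below every 14 d control. Its Kupffer cell, stellate cell, and neutrophil and monocyte medians were 291, 159 and 20.8 CPM, within the control ranges. The scaling factors of the 4 libraries with the lowest member medians were 1.12, 1.30, 1.26 and 1.26. The part of these cell markers and factors in the low member values was not tested.

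B2m and Isg15 were not always low in the same animals. In 40 mg/mL replicates 1, 2 and 7 B2m was 85.1, 95.3 and 88.2 CPM, while Isg15 was 44.2, 36.1 and 36.1 CPM, inside the control range, and the member medians were 0.17, 0.16 and -0.22. In replicate 3 B2m was 189 CPM and Isg15 13.7 CPM, with a member median of -0.55. In replicates 8 and 9 both were low, with B2m at 79.8 and 96.9 CPM and Isg15 at 16.1 and 1.65 CPM. Kupffer sums in replicates 1, 2 and 7 were 325, 246 and 337 CPM. Many members had a wider spread between animals in dosed groups at 14 d. The SD of log2 CPM was wider than in controls for 30, 33 and 35 of 36 genes at 14 d, in the order of 10, 20 and 40 mg/mL, beside 60.8%, 77.8% and 77.6% of all features. The median ratio of the SDs was 1.65, 1.88 and 2.09, beside 1.12, 1.36 and 1.41 over all features. At 28 d 19, 27 and 21 of 36 genes were wider, beside 54%, 78.4% and 63.1% of all features, with median ratios of 1.05, 1.39 and 1.15 beside 1.04, 1.35 and 1.13 over all features. No test of these ratios was made.

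**Figure D5:**
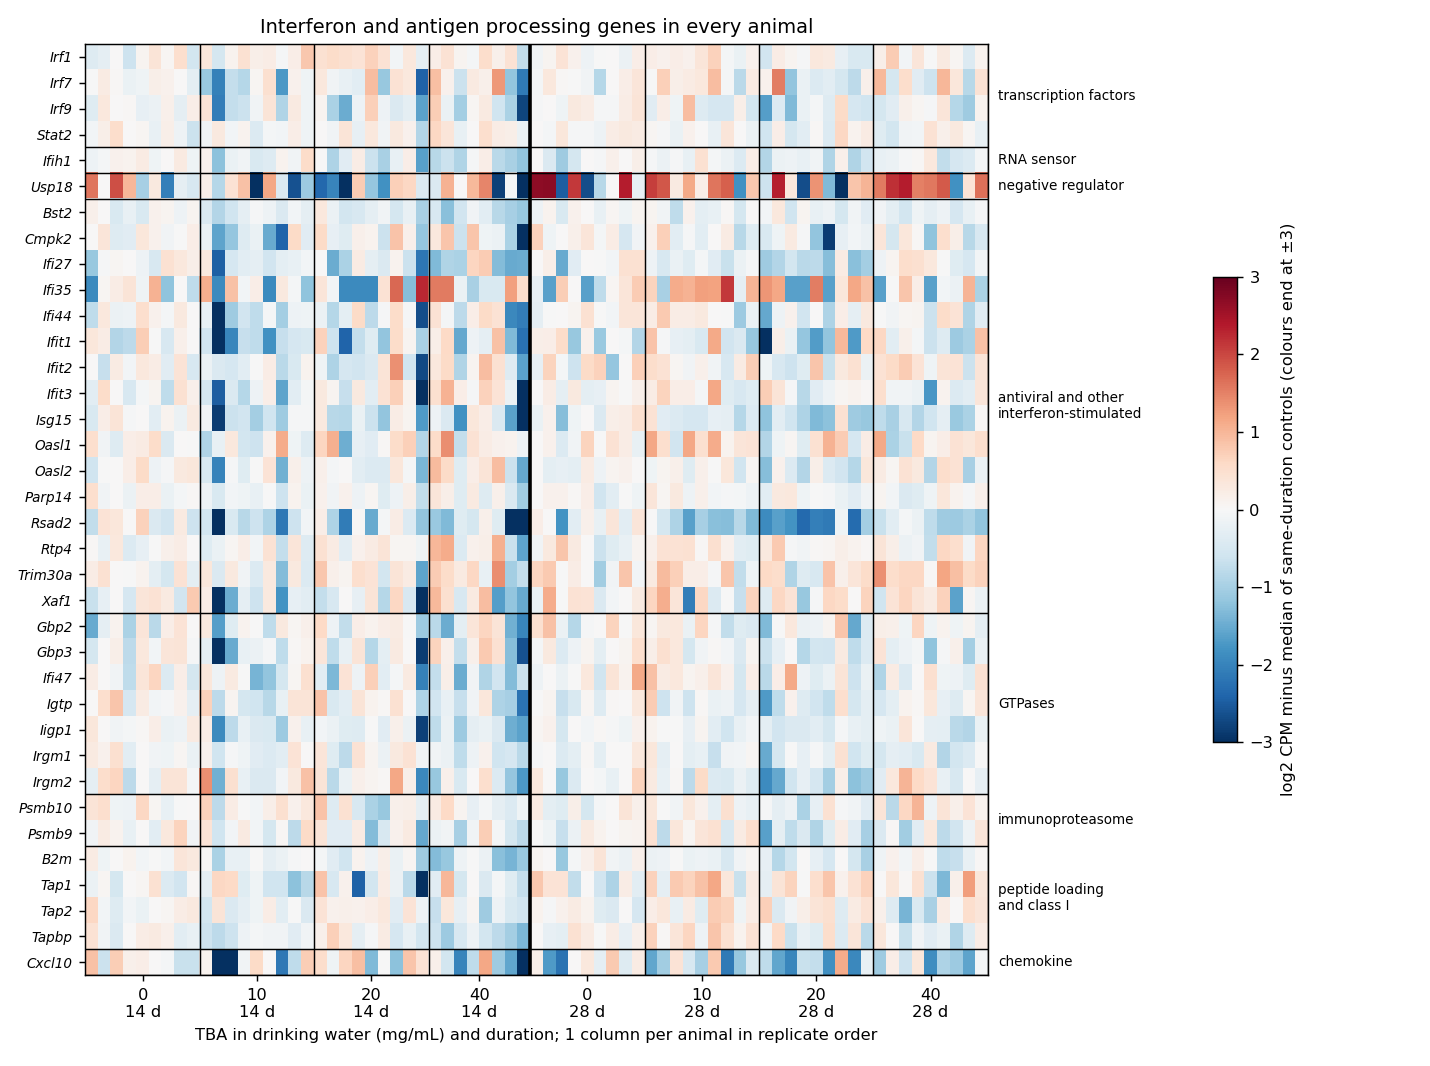
Log2 CPM minus the median of the same-duration controls (colour, blue lower and red higher, ending at ±3) for 36 member genes in rows, ordered by role, and 71 animals in columns, ordered by dose and duration. Near-solid blue columns at 14 d mark 10 mg/mL replicate 2, 20 mg/mL replicate 9 and 40 mg/mL replicate 9.

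At 10 and 20 mg/mL for 14 d, 0 member probes passed in edgeR, DESeq2 or limma. By edgeR 0% of all features passed at 10 mg/mL and 0.0352% at 20 mg/mL. Over all features DESeq2 called 12 higher and 0 lower at 10 mg/mL, and 15 higher and 6 lower at 20 mg/mL. With limma there were 7 higher and 0 lower at 10 mg/mL, and 12 higher and 6 lower at 20 mg/mL. At 10 mg/mL 7 member probes (11.5%) had an unadjusted p under 0.05, all lower, beside 4.32% of all features. They were the 3 probes of Ifit1, which binds viral RNA caps (log2 fold changes -1.06, -0.91 and -1.13), and those of Rsad2 (-0.89), Ifi44 (-0.65), Isg15 (-0.63) and Iigp1 (-0.47), with adjusted p values of 0.843 or more. At 10 mg/mL 53 of 61 probes were below 0 and the gene median was -0.24, beside a median of 0.02 over all features. Several of these probes belong to the same gene. The member medians of replicates 2 and 7 were -1.09 and -0.56, and those of the other animals lay between -0.29 and -0.01. At 20 mg/mL 3 probes (4.92%) had an unadjusted p under 0.05, of Ifih1 (-0.42), of Bst2 (-0.31) and of Irf1 (0.40), beside 6.05% of all features, and the gene median was -0.15. The comparisons at the 3 doses share their controls. B2m had -0.27, -0.28 and -0.80 at 10, 20 and 40 mg/mL, and Tapbp had -0.32, 0.01 and -0.74. The linear trend over dose at 14 d called the 5 probes that passed at 40 mg/mL and no others of the 61. Of all features 7.99% passed the trend and 4.34% passed it as lower. Per 10 mg/mL, B2m fell by 0.19 on the log2 scale (edgeR adjusted p = 0.00135), Tapbp by 0.16 (0.0103), Ifih1 by 0.16 (0.0229), Iigp1 by 0.15 (0.0393) and Bst2 by 0.14 (0.00615). With the scaling factor as a covariate 0 member probes passed the trend. Without replicate 1, 7, 8 or 9 at 40 mg/mL 3 passed in each case, and without replicate 6 there were 8.

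At 28 d 0 member probes passed in edgeR at any dose. Of all features 0% passed at 10 mg/mL, 0.158% at 20 mg/mL and 0.00587% at 40 mg/mL, and 0.129% passed the linear trend. Unadjusted p values under 0.05 were found for 3, 8 and 2 member probes at 10, 20 and 40 mg/mL, and for 4 in the trend (4.92%, 13.1%, 3.28% and 6.56%), beside 4.15%, 15.1%, 6.32% and 7.89% of all features. DESeq2 also gave 0 at each dose and in the trend, while limma gave 2 at 20 mg/mL, 1 in the trend and 0 elsewhere. Over all features DESeq2 called 125 higher and 162 lower at 20 mg/mL, 18 and 15 at 40 mg/mL, and 36 and 37 in the trend. At 10 mg/mL it called 0. By limma 3.02% of all features passed at 20 mg/mL and 2.05% in the trend. At 10 mg/mL limma called 8 higher and 10 lower, and at 40 mg/mL 81 higher and 137 lower. The gene with the smallest p at 20 mg/mL was Rsad2. Its controls ranged from 4.24 to 19.6 CPM (median 15.1) and the animals at 20 mg/mL from 2.87 to 13.9 CPM (median 3.98), with 6 of 9 below every control. The log2 fold change was -1.47 (SE 0.38, edgeR adjusted p = 0.0669). It passed in limma (-1.77, adjusted p = 0.00895), with a filter at 5 CPM (edgeR adjusted p = 0.045) and in a fit of the groups compared alone (edgeR adjusted p = 0.0285). Rsad2 was also lower at 10 mg/mL, at 4.78 to 14.9 CPM (median 7.47), and at 40 mg/mL, at 6.52 to 14.6 CPM (median 8.84), without passing. The 20 mg/mL group had a gene median of -0.22, against 0.02 at 10 mg/mL and -0.07 at 40 mg/mL. Ifi27 (-0.74), Irgm2 (-0.75), Isg15 (-0.65), Psmb9 (-0.51) and B2m (-0.37) had unadjusted p values under 0.05 at 20 mg/mL. Their smallest adjusted p by edgeR was 0.181. The second call of limma was Ifi27, which passed in 1 of 10 alternatives. The second probe of Ifi27 had 0.14 by edgeR. B2m ran from -0.38 to 0.08 over the alternatives. Control replicate 3 at 28 d stood apart, with a scaling factor of 1.37 and B2m at 94.7 CPM beside 183 CPM in the next control. Without it 1 member probe passed at 20 mg/mL, as 760 of all features did instead of 27. Without replicate 7 at 20 mg/mL 1 member probe passed too.

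None of the 5 genes that fell at 14 d passed at 28 d. B2m at 40 mg/mL for 28 d was 123 to 238 CPM (median 198) beside 94.7 to 273 CPM (median 208) in controls, and 0 of 9 animals lay below every control. Log2 fold changes at 28 d were -0.11 for B2m (95% confidence interval -0.42 to 0.21), -0.24 for Tapbp, -0.19 for Bst2, -0.19 for Iigp1 and -0.03 for Ifih1. The difference of the 40 mg/mL effect between durations was tested directly, as 28 d minus 14 d. For B2m it was 0.70 (SE 0.23, unadjusted p = 0.00366, edgeR adjusted p = 0.43), for Ifih1 0.59, for Iigp1 0.53, for Tapbp 0.50 and for Bst2 0.40. None of the 61 probes passed by edgeR, DESeq2 or limma. By edgeR 5 had an unadjusted p under 0.05 (8.2%, beside 6.34% of all features), and 0% of all features passed. Over all features DESeq2 called 29 higher and 2 lower, and limma called 0. The durations were therefore not shown to differ in the member probes. The controls of the durations did not differ in any member probe either, by the same tools. By edgeR 1 probe of Irf1 (0.30) had an unadjusted p under 0.05 (1.64%, beside 3.03% of all features), and 0% of all features passed. Of all features DESeq2 called 0 there, and limma called 3 higher and 0 lower.

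Other genes of the pathway were counted at 40 mg/mL for 14 d, where 3.68% of all features passed as lower. Of 21 further antigen presentation genes 7 fell and 0 rose, with a median log2 fold change of -0.64. H2-T23, a non-classical class I gene, was 1120 to 1530 CPM in controls and 295 to 1190 CPM at 40 mg/mL (log2 fold change -1.17, SE 0.25, edgeR adjusted p = 0.00165), with 7 of 8 animals below every control. H2-D1, a classical class I heavy chain, had -0.64 (edgeR adjusted p = 0.00401) and was 47.5 to 62.6 CPM in controls and 16.6 to 53.3 CPM at 40 mg/mL. Canx, the gene of the chaperone calnexin, had -0.81 (edgeR adjusted p = 0.0108). The other 4, named because they complete the count, were the heavy chain H2-K1 (-0.91), the peptide-trimming enzyme Erap1 (-0.91) and the class II genes Cd74 (-0.93) and H2-Aa (-0.96). With the scaling factor as a covariate Erap1 was at 0.07 and none of the 7 passed, and in the 17 refits without 1 library H2-Aa lost its call in 11, Cd74 in 5 (control replicate 8, or 40 mg/mL replicate 1, 7, 8 or 9) and Erap1 in 4 (40 mg/mL replicate 1, 2, 7 or 8). Cd74 and H2-Aa lost theirs in a fit of the groups compared alone too (edgeR adjusted p = 0.067 and 0.0817), and all 3 without the 2 libraries of the highest scaling factors (0.189, 0.268 and 0.259 for Cd74, H2-Aa and Erap1). H2-K1 and Canx lost theirs in that fit (edgeR adjusted p = 0.0596 and 0.0601), with the shallow library of replicate 5 kept (0.0733 and 0.0941) and without those 2 libraries (0.172 and 0.187). Of 46 other interferon-stimulated genes 1 fell, Lgals3bp, a secreted glycoprotein gene (log2 fold change -0.98, edgeR adjusted p = 0.0119), and their median was -0.02. Lgals3bp was at -0.17 with the covariate (edgeR adjusted p = 0.749) and at -0.90 without those 2 libraries (0.104). None passed among 9 receptors and kinases, 12 sensors and adaptors, 7 other transcription factors, 11 other GTPases and 2 other chemokines, with medians of -0.29, -0.05, -0.28, -0.41 and -0.54. Unadjusted p values under 0.05 among these lists numbered 5, 0, 0, 3 and 0, beside 19% of all features. The trend at 14 d called the 7 antigen presentation genes and Lgals3bp as lower, and Ifi30, a lysosomal thiol reductase gene, as higher (0.17 per 10 mg/mL, edgeR adjusted p = 0.0391). Of the 10 interferon genes listed, with 13 probes, 0 passed the filter, and the highest group mean was 0.268 CPM.

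Markers of liver cell types were counted in the same comparison. There 3.68% of all features passed as lower and 19% had an unadjusted p under 0.05. Of 8 hepatocyte markers 4 fell, namely Alb (log2 fold change -0.72), Apoa1 (-1.16), Serpina1a (-0.78) and Ttr (-0.64), which encode secreted plasma proteins. The summed markers had a median of 20700 CPM at 40 mg/mL beside 47800 CPM in controls. Of 8 sinusoidal endothelial markers Oit3 fell (-0.58), and of 8 stellate cell markers Reln fell (-0.71). None of 10 Kupffer cell, 5 T and NK cell, 5 B and plasma cell, 3 neutrophil and monocyte, 1 dendritic cell and 3 cholangiocyte markers passed by edgeR, and 1 of them, the dendritic cell marker, had an unadjusted p under 0.05. Their summed levels at 40 mg/mL were 107 to 354 CPM for Kupffer cells (controls 233 to 309), 1.32 to 9.57 CPM for T and NK cells (4.88 to 16) and 1.48 to 8.31 CPM for B and plasma cells (1.9 to 12).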

How the data were processed

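Values are whole-number counts per probe in 1 table, as the authors deposited them, not scaled or logged. Per the submitters' processing notes, bcl2fastq 2.20 and Bowtie were used, and the genome build, counting tool and probe sequences are not given in the sources used here. All computation from there on was done here. Groups follow the labels for dose and duration. Libraries under 100000 counts were left out (1 of 72). Features were filtered with filterByExpr over the 8 groups, scaled by TMM and fitted with edgeR 4.0.16 in R 4.3.3 (quasi-likelihood, 1 mean per group over all 71 libraries), and p-values were adjusted over 17050 features within each of 10 comparisons. Log2 CPM used a prior count of 2. Confidence intervals are for the difference of group means, from the fitted spread between animals, and do not span the values of single animals.

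A gene stands for its member probe with the highest mean CPM. Values per group are given for genes called in any comparison and for 1 gene of each role without a call, and up to 3 called genes of each further list were named first. The members and lists were chosen with earlier results of these data known. Alternatives were DESeq2 1.42.0, limma 3.58.1 with quality weights, other scalings and filters, probes summed per gene and each library left out. On simulated data with 200 changed features the tests recovered changes made there. Those changes were larger than the falls of the member genes that passed, and no animal was made to stand apart. How well falls of the size seen here are recovered was therefore not shown. No duplicate libraries were found. The result of 1 listed pathway gene is not reported here.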

Additional observations from a re-analysis of the deposited data

Results flagged for a closer look

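Within groups of 8 or 9 animals, 104 sets of values (11 member genes, the median member difference and the scaling factor in 8 groups) were checked for a lowest or highest animal with a gap to its neighbour that exceeds Dixon's 95% critical value. Chance gives about 1 in 20 for independent sets, and 17 were found (16.3%). These sets are not independent, since 1 animal can stand apart in several of them. Isg15 and Rsad2 were included after their values had been seen. The share therefore does not show an excess over chance.

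B2m was lowest at 94.7 CPM in control replicate 3 at 28 d (next 183), 109 CPM in 10 mg/mL replicate 2 at 14 d (next 176) and 150 CPM in 10 mg/mL replicate 7 at 28 d (next 181). The first 2 of these libraries had the highest scaling factors of their groups, 1.37 and 1.26, which also stood apart. Control replicate 3 at 28 d was lowest too for Iigp1 (135 CPM, next 179) and Rsad2 (4.24 CPM, next 12). 10 mg/mL replicate 2 at 14 d was lowest for Isg15 (6.65 CPM, next 23.2) and Rsad2 (0.362 CPM, next 2.25). In 20 mg/mL replicate 9 at 14 d Iigp1 was 28.4 CPM (next 153), Stat2 36 CPM (next 56.5) and the median member difference -1.17 (next -0.34). In 40 mg/mL replicate 9 at 14 d Isg15 was 1.65 CPM (next 13.7). At 28 d, 10 mg/mL replicate 1 had the highest Isg15 of its group (73 CPM, next 45.7). There 10 mg/mL replicate 8 had the lowest median member difference (-0.39, next -0.07) and the lowest Usp18 (2.91 CPM, next 12.4), and 40 mg/mL replicate 7 the lowest Usp18 of its group (2.91 CPM, next 14.3).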

How the results depend on the processing

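At 40 mg/mL for 14 d, where 5 member probes fell, 2 passed when each library's log2 scaling factor was a covariate (Tapbp, and Tap2 in place of the other 4) and 3 without the 2 libraries of the highest scaling factors, an alternative chosen after seeing the data. Limma gave 7, beside 185 of all features higher and 511 lower. DESeq2 (641 and 749), the filter at 5 CPM (624 and 724) and probes summed per gene (457 and 523) gave 6 each. With the shallow library kept 4 passed (95 and 369). Refits without 1 library gave 3 to 8. The linear trend at 14 d gave 5, or 0 with the covariate, 3 in a fit of its groups alone, 1 without those 2 libraries and 3 to 8 without 1 library. Its other alternatives gave 4 to 6. Every probe that passed in these settings was lower. At 20 mg/mL for 28 d, with 0, limma gave 2, a filter at 5 CPM gave 1, the groups alone gave 1 and refits without 1 library gave 0 to 1. The linear trend at 28 d, with 0, gave 1 by limma. The other 6 comparisons gave 0 in every alternative run. The cause of these changes was not tested, apart from the fewer samples in some fits. In single genes at 40 mg/mL for 14 d, Tapbp passed in all 11 alternatives, B2m and Bst2 in all but the covariate, Iigp1 in 8 and Ifih1 in 9 of 11. No replicate numbers in the labels pair animals across groups. No paired analysis was possible because the labels give none. With 8 or 9 animals a group, a value that missed the threshold does not show that a gene stayed at its level. Counts of low probes, such as those near 1 CPM, limit what can be seen for Ifi35, Tap1 and Psmb8.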

Other observations

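Probes of the same gene did not always vary alike. The most abundant probe of Usp18 ranged from 5.71 to 93.2 CPM among the 14 d controls (SD of log2 CPM 1.26), while its second probe ranged from 22.1 to 28.5 CPM there (SD of log2 CPM 0.12). In 28 d controls the SDs were 2.15 and 0.29. At 40 mg/mL for 14 d the 4 probes of Gbp3 had log2 fold changes of -0.01, -0.43, 0.59 and 0.70, the 3 of Gbp2 had -0.15, -0.73 and -0.78 and the 3 of Irf1 had 0.21, 0.04 and -0.25, and none of these passed in edgeR. The probe sequences were not used here.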
